A study of Caenorhabditis elegans with 14 samples.

Results

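RNA bound by EIF-3.G carrying the zinc finger substitution C130Y was compared with RNA bound by intact EIF-3.G in Caenorhabditis elegans. The comparison used the CLIP lists of 2 EIF-3.G(C130Y) and 2 EIF-3.G(+) libraries, each already divided by its own input library. These are 8 of the 14 samples of the series, 4 CLIP and 4 input libraries. All 122924 peaks of the 4 lists were taken, of 162556 peaks in the 7 lists of the series, and peaks of different lists were matched by chromosome, strand and an overlap of at least 1 nt.

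EIF-3.G is a subunit of eIF3, the largest of the translation initiation factors, which binds the small ribosomal subunit and takes part in the recruitment of mRNA and in scanning towards the start codon. The subunit holds a zinc finger of the CCHC type and, at its end, an RNA recognition motif, a fold found in many RNA-binding proteins. The C130Y form replaces a cysteine by a tyrosine at residue 130. The strains carried acr-2(n2420), a gain-of-function allele of an acetylcholine receptor subunit of cholinergic motor neurons, whose overactivity causes convulsions.

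In the C130Y worms the transgene juSi365 expressed 3xFLAG::EIF-3.G(C130Y), and the animals also carried eif-3.G(ju807), the same substitution in the endogenous gene, together with acr-2(n2420). In the (+) worms the transgene juSi364 expressed 3xFLAG::EIF-3.G(+) with acr-2(n2420), and the genotype label names no allele of eif-3.G. Transgene and endogenous allele therefore changed together, and the effect of the protein that was precipitated cannot be told apart from that of the strain. Both transgenes used the promoter Punc-17β, which is active in cholinergic motor neurons, whereas the lysates and inputs came from whole worms of mixed stages. A library with fewer tagged cells and one with less bound RNA per cell cannot be told apart in such bulk samples. Crosslinking was with ultraviolet light at 3 kJ/m2, and the tagged libraries were precipitated with anti-FLAG M2. Beside the results stand values of 2 libraries of EIF-3.G(ΔRRM), which lacks the RNA recognition motif and was expressed in acr-2(n2420) worms, and of 1 library of N2 worms without a transgene. For that library the source label speaks of an IgG control and the antibody label of anti-FLAG M2, so which antibody its values stand for is uncertain. Markers of the cell type could not be checked, because the coordinates are in build ce10 and an annotation of that build was not used here. Regions are therefore given by position.

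The lists held 26612 and 36324 peaks in C130Y against 34441 and 25547 in (+). Recovered CLIP totals were 1.21 and 1.72 M reads in C130Y against 1.70 and 1.57 M in (+). Input totals were 3.03 and 1.67 M reads in C130Y against 1.14 and 1.29 M in (+), so both C130Y inputs were deeper than both (+) inputs. The smallest listed peak, 3 CLIP reads over 1 input read, had a log2 enrichment of 2.90 and 1.54 in the C130Y libraries against 1.00 and 1.30 in the (+) libraries. A value of that size can thus rest on 3 CLIP reads. The labels do not say whether replicates came from separate cultures, so every p below reflects variation among these libraries, part or all of which may be technical. Intervals cover counting error only.

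More peaks were enriched in C130Y, meaning peaks with a log2 enrichment over input of at least 1 and a −log10 p of at least 3. The C130Y libraries had 1181 and 958 enriched peaks against 640 and 651 in (+). The groups did not overlap, and their means were 1069.5 ± 158 in C130Y and 645.5 ± 7.78 in (+) (SD, n = 2 each), a 1.65-fold ratio of geometric means. In the C130Y and (+) lists no −log10 p lay between 97.9 and the cap of 400. A peak at the cap thus need not have a −log10 p near 400. Enriched peaks at the cap of the deposited −log10 p numbered 227 and 181 in C130Y against 58 and 61 in (+), a 3.41-fold ratio. They made up 19.2% and 18.9% of the enriched peaks in C130Y against 9.06% and 9.37% in (+). Enriched peaks held at least 15.5% and 15.9% of the CLIP reads in C130Y against at least 9.56% and 11.4% in (+), counting each run of abutting peaks once by its highest peak. These shares of reads are lower bounds in both genotypes, so the order of the full shares is not settled. The exact two-sided permutation p was 0.333 for each of these quantities, taken on the bounds for the shares of reads. It is the lowest value available with 2 libraries a group. The height of the enriched peaks did not separate the genotypes, with a median log2 of 2.41 and 2.45 in C130Y against 2.31 and 2.64 in (+).

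Read totals moved with these numbers. With all recovered reads scaled to 1.21 M CLIP and 1.14 M input reads, the enriched peaks were 768 and 750 in C130Y against 592 and 588 in (+), a log2 ratio of 0.36 in place of 0.72. The groups still did not overlap. Enriched peaks had a median length of 33 and 33.5 nt in C130Y against 31 and 28 nt in (+), a difference of 3.75 nt with an exact permutation p of 0.333. At equal totals it was 28.5 and 29.5 nt in C130Y against 31 and 27 nt in (+), a difference of 0 nt.

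**Figure D1:**
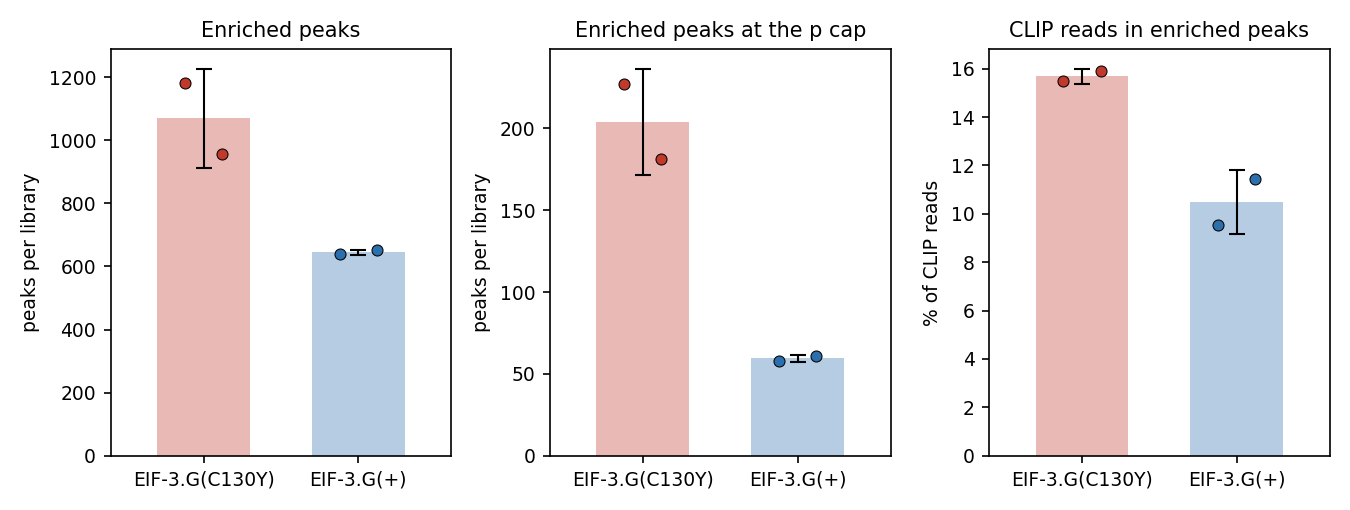
Enriched peaks per library, enriched peaks at the cap of the −log10 p, and percent of CLIP reads in enriched peaks (a lower bound), for EIF-3.G(C130Y) on the left and EIF-3.G(+) on the right of each panel. Bars are means, lines 1 SD and points the 2 libraries. Both C130Y points lie above both (+) points in each panel, for example at 1181 and 958 against 640 and 651 enriched peaks.

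The listed peaks of the 4 libraries formed 71748 regions. Of these, 5738 had a peak in all 4 lists, 2679 only in both C130Y lists and 2419 only in both (+) lists. A further 24149 regions had a peak in 1 C130Y list alone and 21371 in 1 (+) list alone. A region without a listed peak is one that the peak caller did not report, which is not the same as a region without reads.

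Over the 5738 regions in all 4 lists, C130Y values stood higher as a body. The median log2 enrichment was 0.58 and 0.54 in C130Y against 0.16 and 0.13 in (+). The median difference, C130Y minus (+), was 0.46, its quartiles were 0.00 and 0.91, and 75.1% of the regions had a difference above 0. The shift was also 0.46 in regions with at least 2 input reads in every library and 0.45 in regions with exactly 1 peak per library. Both C130Y values lay above both (+) values in 39% of the regions and below both in 6.01%. After each library was centred on its own median these shares were 18.9% and 17%. A share near 39% or 6.01% in a subset of regions is thus the background.

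Replicates differed nearly as much as genotypes did. The median absolute difference in log2 enrichment was 0.51 between the C130Y libraries and 0.64 between the (+) libraries. Between a C130Y and a (+) library it was 0.64 to 0.76. Peak midpoints lay at similar distances in all pairs of libraries, and matching by overlap itself limits these distances. In the 3662 regions of 1 peak per library, the median distance between peak midpoints was 6 nt within C130Y, 5.5 nt within (+) and 6 to 6.5 nt between the genotypes, with 65.5% to 69.3% of the midpoints within 10 nt of each other. In the 55 of these that were enriched in all 4 libraries it was 1 nt within C130Y, 1 nt within (+) and 1.5 to 2.5 nt between genotypes, and 96.4% to 100% of the midpoints lay within 10 nt of each other.

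With this spread, 14 of the 5738 regions were higher in C130Y (0.244%) and 1 was lower (0.0174%), by limma on the log2 enrichments with a Benjamini-Hochberg adjusted p below 0.05 over all 5738 regions. An unadjusted p below 0.05 was reached by 652 regions in the higher and 54 in the lower direction. The 14 differences ran from 2.67 to 5.29 on the log2 scale, with adjusted p of 0.00116 to 0.0336. All 14 regions were enriched in both C130Y libraries, 12 were enriched in neither (+) library, and in 9 both (+) values were below 0, so that the CLIP library held a smaller share of reads there than its input. After centring each library on its median, 8 of the 14 remained. The calls depended on single libraries, since limma called 32 regions higher without C130Y replicate 2, 3 regions higher without (+) replicate 1 and 0 without (+) replicate 2, where 615 regions were higher at an unadjusted p below 0.05 and the smallest adjusted p was 0.0968.

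**Figure D2:**
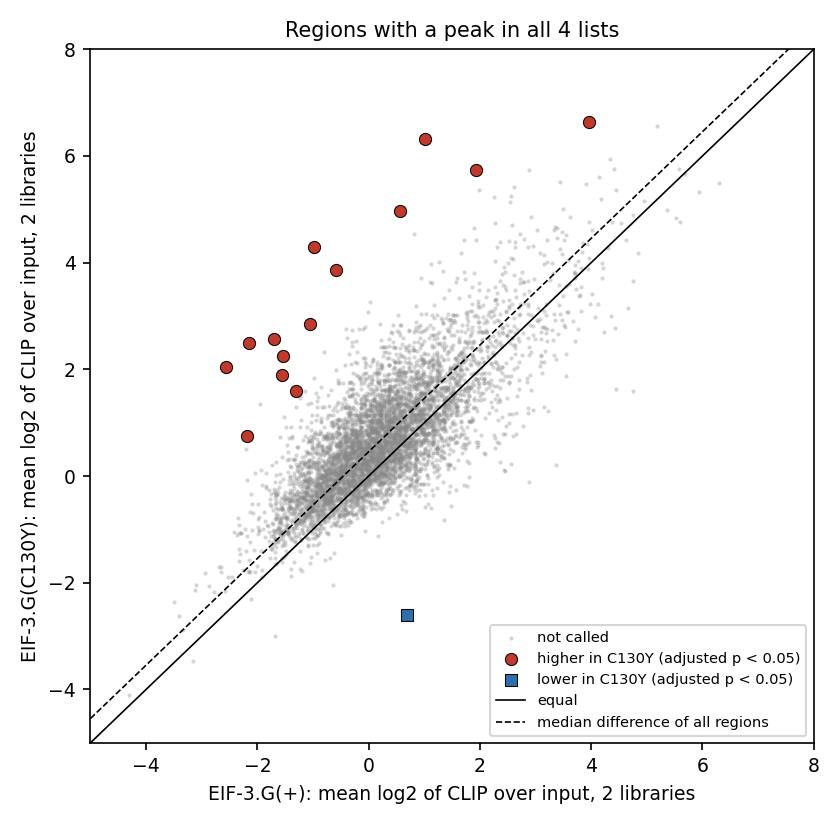
Mean log2 of CLIP over input in EIF-3.G(C130Y) on the vertical axis against that in EIF-3.G(+) on the horizontal axis, 1 point for each of the 5738 regions with a peak in all 4 lists. The solid line marks equal values and the dashed line the median difference of 0.46, and the 14 higher regions (circles) and the 1 lower region (square) by limma lie far from both lines.

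The called regions fell into 3 patterns by the values in the other libraries, a grouping made after the values were seen. In the first, 7 regions were enriched in both C130Y libraries and in none of the ΔRRM or no-transgene libraries. Of all 472 regions enriched in both C130Y libraries, this held for 83 (17.6%). At chrIV:2603680-2603702 on the plus strand, log2 enrichment was 6.82 and 5.80 in C130Y against 1.74 and 0.30 in (+), and no peak was listed in ΔRRM or without a transgene. The 23 nt held 181 and 115 CLIP reads over 4 and 2 input reads in C130Y. In (+) they held 5 CLIP reads over 1 input read in replicate 1, and at least 3 over at least 2 in replicate 2. The difference was 5.29 ± 0.71 (SE), a 39.1-fold ratio of enrichments (limma adjusted p = 0.00433).

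The other 6 regions of this pattern had lower enrichment or fewer reads. At chrV:14028475-14028543 on the minus strand, values were 4.29 and 4.32 in C130Y against −1.46 and −0.51 in (+), −0.33 and −2.54 in ΔRRM, and −1.39 in the no-transgene library. The C130Y libraries were thus the only ones of the 7 with more than the input share of reads there, and the difference was 5.28 ± 0.72 (limma adjusted p = 0.00433). At chrII:7171927-7171964 on the plus strand, values were 3.86 and 3.86 in C130Y against −1.37 and 0.19 in (+), with −0.67 and −2.31 in ΔRRM, and −1.50 in the no-transgene library. The region abuts another C130Y region, chrII:7171914-7171926, with C130Y values of 3.75 and 4.64 and nothing listed elsewhere. At chrV:14092579-14092627 on the plus strand, values were 2.74 and 2.97 in C130Y against −1.07 and −1.03 in (+), on at least 4555 and 6865 CLIP reads in C130Y. At chrV:18659569-18659609 on the minus strand, 5.22 and 4.71 in C130Y against 0.83 and 0.30 in (+) rested on 15 and 27 CLIP reads over 1 input read each in C130Y, the fewest among the 14. In ΔRRM this region had listed values of 3.10 and 1.88 that missed the p minimum. The remaining regions were chrV:14277688-14277725 on the plus strand, with 1.76 and 2.04 in C130Y against −2.14 and −0.96 in (+), and chrV:14097418-14097486 on the minus strand, with 0.61 and 0.89 in C130Y against −2.58 and −1.80 in (+). In the last, the region's mean fell below the minimum of 1 although a peak inside it passed in each C130Y library. At chrV:14277688-14277725, C130Y had 38 and 68 CLIP reads over 28 and 16 input reads. There (+) had at least 87 and 133 CLIP reads over at least 256 and 215 input reads. The higher ratio in C130Y at that region thus went with fewer input reads and not with more CLIP reads.

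In the second pattern, 5 regions were enriched in both C130Y libraries and without a transgene, while every listed value of (+) and ΔRRM was below 0. At chrI:9176323-9176447 on the plus strand, values were 2.49 and 2.49 in C130Y against −2.22 and −2.09 in (+), −1.05 and −2.36 in ΔRRM, and 1.94 in the no-transgene library. The C130Y and no-transgene libraries stood on one side of their inputs and the other 4 on the opposite side. The difference of 4.64 ± 0.52 had an adjusted p of 0.00116 by limma. At chrIII:10432345-10432380 on the plus strand, values were 2.30 and 1.80 in C130Y against −2.65 and −2.48 in (+), with −2.25 in the 1 ΔRRM library that listed it and 1.45 without a transgene, and the limma adjusted p was again 0.00116. At chrII:10545138-10545264 on the minus strand, values were 2.59 and 2.55 in C130Y against −1.61 and −1.78 in (+), −1.28 and −1.14 in ΔRRM, and 3.09 in the no-transgene library.

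The pattern held with smaller differences at the other 2 regions. At chrI:6212697-6212814 on the minus strand, values were 2.40 and 2.10 in C130Y against −1.74 and −1.35 in (+), −0.81 and −1.42 in ΔRRM, and 2.28 in the no-transgene library. At chrIV:11474092-11474165 on the minus strand, values were 1.79 and 1.40 in C130Y against −1.54 and −1.06 in (+), −2.02 and −1.95 in ΔRRM, and 1.63 in the no-transgene library. Enrichment in the C130Y libraries at these 5 regions thus went with enrichment in a library that holds no tagged protein. Of all 472 regions enriched in both C130Y libraries, 42 (8.90%) were enriched without a transgene and in no ΔRRM library. Over the 1064 regions in all 7 lists, C130Y minus (+) had a Pearson r of 0.20 with no transgene minus ΔRRM (Spearman rho 0.10). The part of RNA that is precipitated without the tag in the differences at the 5 regions was not tested. The no-transgene library is a single library and the N2 strain carries neither acr-2(n2420) nor eif-3.G(ju807).

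In the third pattern, 2 regions were enriched in all 7 libraries and most so in C130Y. At chrIII:7141400-7141423 on the plus strand, values were 6.02 and 5.46 in C130Y against 2.32 and 1.54 in (+), 2.77 and 1.46 in ΔRRM, and 3.23 in the no-transgene library. At chrIV:5317267-5317293 on the minus strand, they were 6.30 and 6.97 in C130Y against 3.66 and 4.27 in (+), 4.51 and 3.54 in ΔRRM, and 5.80 in the no-transgene library. The differences between C130Y and (+) were 3.81 ± 0.64 (limma adjusted p = 0.0188) and 2.67 ± 0.48 (limma adjusted p = 0.0317).

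**Figure D3:**
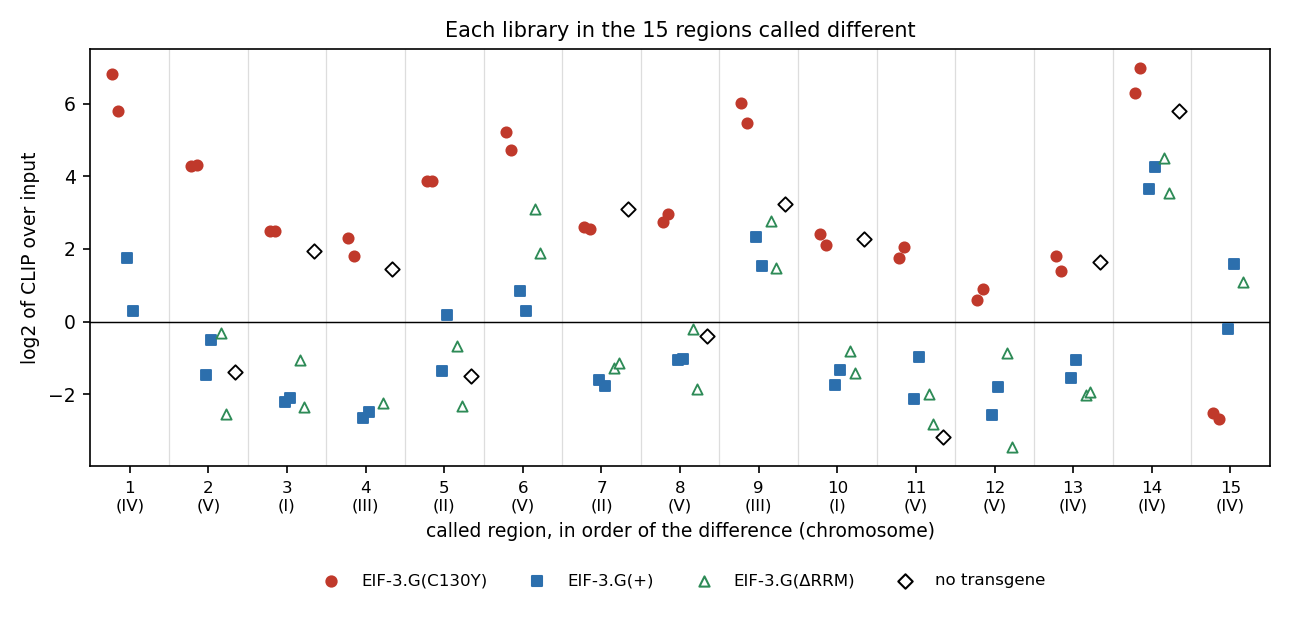
Log2 of CLIP over input in each library (vertical axis) for the 15 regions called by limma, in order of the difference, with the chromosome under each number. Circles are EIF-3.G(C130Y), squares EIF-3.G(+), triangles EIF-3.G(ΔRRM) and diamonds the library without a transgene, and a missing symbol means that no peak was listed. In regions 3, 4, 7, 10 and 13 the circles and the diamond lie above 0 and every other symbol below 0.

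The 1 region lower in C130Y was chrIV:13392499-13392579 on the minus strand, with −2.53 and −2.69 in C130Y against −0.20 and 1.59 in (+). It was enriched in no library, and its difference was −3.31 ± 0.57 (limma adjusted p = 0.0213). C130Y had at least 22 and 47 CLIP reads over at least 315 and 291 input reads. In (+) replicate 1 there were at least 13 CLIP reads over at least 10 input reads, and in (+) replicate 2 there were 11 over 3. Against (+) replicate 2, the lower ratio in C130Y thus went with more input reads and not with fewer CLIP reads. Against (+) replicate 1 the bounds do not settle the order of either. The reads are not scaled to totals, and both C130Y inputs were deeper. The next 9 regions in this direction did not pass, with limma adjusted p of 0.121 to 0.262. At chrII:7001612-7001677 on the plus strand, values were 1.00 and 2.18 in C130Y against 5.41 and 4.11 in (+), with 8 and 14 CLIP reads in C130Y against 65 and 63 in (+). At the neighbouring chrII:7003259-7003288 they were 2.32 and 0.95 in C130Y against 3.42 and 5.47 in (+). At chrIII:10473925-10474017 on the plus strand they were −0.38 and 0.15 in C130Y against 3.33 and 2.41 in (+), and 3.01 without a transgene. The pair chrIV:10270476-10270511 and chrIV:10269899-10269923 on the plus strand had C130Y values of −0.27 and 0.44 at the first and −0.42 and 0.63 at the second, against (+) values of 2.91 and 1.98 and of 3.00 and 1.85.

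Regions were termed reproducible where C130Y replicates 1 and 2, or (+) replicates 1 and 2, each held an enriched peak. There were 472 such regions in C130Y (0.658% of all 71748 regions) and 265 in (+) (0.369%). Of the 5738 regions in all 4 lists, 435 (7.58%) were reproducible in C130Y and 254 (4.43%) in (+). The reproducible regions made up 44.6% of the 1059 regions enriched in at least 1 C130Y library and 42.7% of the 620 enriched in at least 1 (+) library. Both genotypes shared 202 reproducible regions, which is 42.8% of the C130Y regions (Wilson 95% interval 38.4% to 47.3%) and 76.2% of the (+) regions (70.7% to 81.0%). A further 116 C130Y regions were enriched in 1 (+) library, and 33 (+) regions in 1 C130Y library.

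Enriched peaks were missing from the other genotype at 154 C130Y regions (32.6%, interval 28.6% to 37.0%) and at 30 (+) regions (11.3%, interval 8.05% to 15.7%). Missing calls were mostly values under the thresholds. At 119 of the 154 regions (+) had a peak listed above 0, while 15 had listed (+) peaks at or below 0 only and 20 had none. Of the 30 regions, 26 had a listed C130Y peak above 0 and 4 had none. With reads scaled to equal totals the numbers were 353 reproducible regions in C130Y against 239 in (+), with 170 shared, 100 C130Y regions absent from (+) and 38 (+) regions absent from C130Y. Each set changed with the libraries used, where a genotype left with 1 library counts all enriched regions of that library. Reproducible regions were then 900 in C130Y without C130Y replicate 2, and 450 in (+) without (+) replicate 1 or 453 without (+) replicate 2. Without C130Y replicate 2 the C130Y regions absent from (+) were 497, without C130Y replicate 1 they were 329 and without (+) replicate 2 they were 238. The reverse set had 122 regions without (+) replicate 2, 99 without (+) replicate 1, 48 without C130Y replicate 1 and 47 without C130Y replicate 2.

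**Figure D4:**
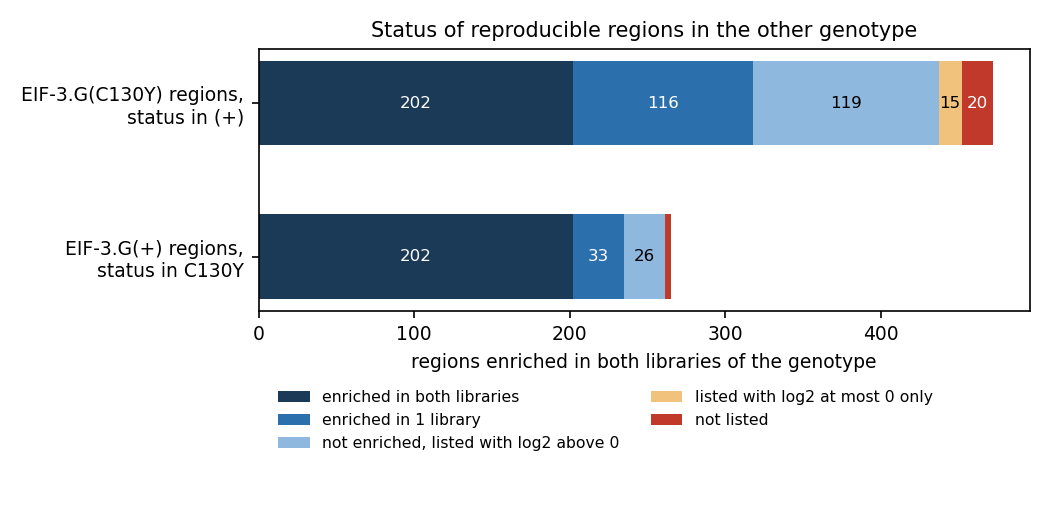
Number of regions enriched in both libraries of EIF-3.G(C130Y) (upper bar, 472) and of EIF-3.G(+) (lower bar, 265), divided by what the other genotype showed there. Both bars share 202 regions enriched in both libraries of both genotypes, and the last segment, with no listed peak in the other genotype, holds 20 regions in the upper bar and 4 in the lower.

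The median difference over the 202 shared regions was 0.23, beside 0.46 over all regions in the 4 lists. It was above 0 in 131 of them (64.9%), beside 75.1% over all regions, and the medians per library were 3.17 and 2.94 in C130Y against 2.54 and 2.72 in (+). Both C130Y values lay above both (+) values at 39.6% of them, beside 39% over all regions, and below at 11.9%, beside 6.01%. After centring, the shares were 24.8% above and 29.7% below, beside 18.9% and 17% over all regions. Of the 14 regions that limma called higher, 2 were among them, those enriched in all 7 libraries.

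The shared regions with the highest lowest value lay on 6 chromosomes. At chrI:15065386-15065448 on the plus strand, log2 enrichment was 5.63 and 5.86 in C130Y against 5.62 and 5.54 in (+). At chrM:1620-1646 on the plus strand of the mitochondrial genome, it was 5.49 and 5.83 in C130Y against 5.34 and 6.04 in (+), on at least 289 and 1295 CLIP reads in C130Y against at least 1214 and 1071 in (+). Neither region differed between the genotypes beyond the spread of the libraries, with differences of 0.17 ± 0.42 and −0.03 ± 0.44 (limma adjusted p = 0.897 and 0.985). At chrIII:4035150-4035169 on the minus strand, values were 5.42 and 5.57 in C130Y against 5.31 and 7.28 in (+). At chrV:17119978-17120046 on the plus strand, they were 5.52 and 5.11 in C130Y against 5.32 and 6.54 in (+). There ΔRRM had 2.42 and 2.43, and the no-transgene library was enriched at 3.38. Of the 10 leading shared regions these ΔRRM values were the lowest. On the minus strand of chromosome II, chrII:14641241-14641298 had 4.80 and 4.74 in C130Y against 5.81 and 5.38 in (+), and chrII:14635720-14635775 had 4.54 and 5.24 in C130Y against 4.41 and 5.10 in (+). The other 4 leading regions had limma adjusted p of 0.466 to 0.912. The no-transgene library was also enriched at chrI:15065386-15065448 (3.27), chrM:1620-1646 (3.05), chrII:14641241-14641298 (2.92) and chrII:14635720-14635775 (2.25). It was enriched at none of the remaining leading shared regions.

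Among the 154 C130Y regions absent from (+), 35 had no listed (+) peak with a log2 above 0, and the 10 of these with the highest lower C130Y value included 5 with over 100 CLIP reads in each C130Y library. In C130Y the 7 nt of chrIV:624159-624165 on the minus strand reached 4.69 and 5.24, with 135 and 234 CLIP reads. The region chrIV:13709353-13709389 on the plus strand had 5.40 and 4.40 on 139 and 265 CLIP reads, and chrI:13693583-13693606 on the minus strand had 4.38 and 4.41 on 25 and 44. None of the other 5 libraries listed a peak at these 3 regions. The same held for chrII:11537899-11537930, with 5.90 and 3.76 in C130Y, for chrV:18849361-18849388, with 3.56 and 3.48, and for chrII:3519086-3519109, with 5.40 and 3.46, on 17 to 42 CLIP reads. Of the 154 regions, 121 had a peak in all 4 lists, where the median difference was 1.28, a value that the choice of regions fixes in part.

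The reverse set held 4 (+) regions with no listed C130Y peak. At chrI:10569223-10569242 on the plus strand, (+) had 3.34 and 4.36 on 91 and 75 CLIP reads, and ΔRRM had enriched peaks of 3.88 and 2.46. At chrI:10185099-10185131 on the minus strand, (+) had 4.12 and 2.39. At chrIV:8377894-8377920 on the minus strand, (+) had 2.16 and 1.90, and ΔRRM had enriched peaks of 1.69 and 1.73. The fourth, chrI:15066133-15066176, had 2.00 and 3.47 in (+) and belongs to a run of regions near the end of chromosome I.

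That run was the densest of either genotype. Between positions 15064994 and 15066978 on the plus strand of chromosome I lay 13 regions, of which 12 were reproducible in C130Y, 10 in (+) and 9 in both. Ribosomal DNA repeats are known to lie at this end of the chromosome, where copies can share reads. The genes were not looked up, so the identity of these RNAs is uncertain. Levels changed over short distances in both genotypes. At 15065226 to 15065257, values were 5.10 and 4.89 in C130Y against 5.72 and 5.00 in (+). At 15065269 to 15065385 they were 4.29 and 4.33 in C130Y against 3.11 and 2.81 in (+). The largest difference of the run was at 15066951 to 15066978, with 5.53 and 5.19 in C130Y against 2.49 and 1.48 in (+), 3.38 ± 0.66 with a limma adjusted p of 0.0597. The regions 15065575 to 15065606 (3.15 and 5.03 in C130Y) and 15066902 to 15066925 (4.07 and 3.80 in C130Y) had no listed (+) peak.

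The densest run of C130Y regions absent from (+) held 4 such regions and 1 more that was enriched in (+) replicate 2. This run, chrI:2069894-2070385 on the minus strand, was picked after its values were seen. At 2070259 to 2070319, values were 1.95 and 1.74 in C130Y against −1.14 and −0.83 in (+), −0.23 and −0.93 in ΔRRM, and 1.93 in the no-transgene library, and the difference of 2.82 ± 0.56 had a limma adjusted p of 0.0621. At 2069894 to 2069925 C130Y had 1.79 and 1.53, (+) replicate 1 listed none, (+) replicate 2 had −1.04, and the value was 3.60 without a transgene. In between, at 2069940 to 2070015, the region enriched in (+) replicate 2, values were 2.23 and 1.70 in C130Y against 0.69 and 1.08 in (+), with 0.59 and 0.39 in ΔRRM. At 2070321 to 2070385 they were 2.14 and 1.78 in C130Y against 0.21 and 0.10 in (+), a difference of 1.81 ± 0.65 (limma adjusted p = 0.289). The no-transgene library was enriched at every region of the run, with the same 3.60 up to position 2070015 and the same 1.93 from 2070259 on.

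The ΔRRM and no-transgene libraries were counted at each set of regions, and these counts are given as a description. Of the 154 C130Y regions absent from (+), 23 (14.9%, interval 10.2% to 21.4%) were enriched without a transgene and in no ΔRRM library, against 3 of the 202 shared regions (1.49%, interval 0.51% to 4.27%) and 42 of all 472 reproducible C130Y regions (8.90%). Of the 30 (+) regions absent from C130Y it was 0 (Wilson interval up to 11.4%). A ΔRRM library was enriched at 78 of the 154 regions (50.6%) against 186 of the 202 shared ones (92.1%), beside 347 of the 472 (73.5%). Few shared regions could therefore count as enriched without a transgene and in no ΔRRM library, which sets much of that contrast. With ΔRRM left aside, the no-transgene library was enriched at a smaller share of the 154 regions than of the 202. The numbers were 35 of the 154 (22.7%) against 89 of the 202 (44.1%), beside 151 of the 472 (32.0%). The C130Y values of both sets were not alike, with medians of 1.93 and 2.04 over the 121 absent regions in all 4 lists against 3.17 and 2.94 over the shared ones. None of the 3 libraries was enriched at 53 of the 154 regions (34.4%), at 16 of the 30 (53.3%) and at 13 of the 202 (6.44%). Over the 472 it was 83 (17.6%). These shares depend on depth, as the ΔRRM libraries had 0.544 and 0.893 M CLIP reads and the no-transgene library 0.192 M. Another (+) region lay within 5 kb on the strand at 24 of the 154 C130Y regions absent from (+) (15.6%), against 74 of the 202 shared regions (36.6%).

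At the log2 minimum, the lowest peak that decided a reproducible C130Y region was at chrI:8245577-8245612 on the minus strand, with region values of 1.63 and 1.01 in C130Y. The nearest outside was chrV:15001680-15001864 on the minus strand, whose deciding peak in C130Y had 0.98. Next came chrIV:9563503-9563558 on the plus strand, with 1.01 and 0.95 in C130Y against 1.00 and 0.62 in (+). The deciding values, 1.01 just inside and 0.98 and 0.95 just outside, lie close together.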

How the data were processed

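Single-end enhanced CLIP (seCLIP) libraries and their inputs were measured. Per the submitters' processing notes, the tools were STAR 2.4.0i, SAMtools 1.4.1 and cutadapt 1.9.1 and the build was ce10, while the name of the peak caller is not given. The authors deposited 1 peak list per CLIP library. For each peak it holds the log2 of CLIP relative to the matched input, and a −log10 p-value. The latter is 0 where the log2 is below 0, and its cap is 400. The highest −log10 p below the cap was 96.0 and 97.9 in C130Y against 86.8 and 87.2 in (+). The cap is thus a stand-in for values past these, and not a measured −log10 p of 400. The log2 and −log10 p are the authors' values. Because each list is scaled to its own library totals, log2 values were compared between libraries as relative enrichments.

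The lists give no read numbers. They were recovered by taking the log2 as the ratio of CLIP to input reads (at least 1), each over its library total, and p as a chi-square test with Yates correction, replaced by Fisher's exact test where an observed or expected number was under 5. For 99.995% to 100% of the peaks with an uncapped p in each of the 4 lists, this gave the deposited −log10 p within 0.001 or 1%. Read numbers at the cap or at a −log10 p of 0 are lower bounds. A difference in log2 between libraries can come from the input reads as well as from the CLIP reads.

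Peaks of the 4 lists that overlapped by at least 1 nt on a strand were joined into regions, whose value in a library is the length-weighted mean log2. Regions in all 4 lists were tested with limma 3.58.1 (R 4.3.3, prior variance following the mean, no replicate block), with Benjamini-Hochberg adjustment. Values per library were compared by exact permutation, with 6 arrangements. Python 3.11.15 with scipy 1.17.1 did the rest. The scripts were tested on simulated data. Named regions are, per direction, the 10 with the largest difference past the threshold, filled with those of smallest p, and the remaining called ones. For the shared regions they are the 10 with the highest lowest log2, and for regions absent from the other genotype up to 10 without a listed log2 above 0 there. The members, lists and rules were chosen with earlier results of these data known. Same-numbered replicates did not deviate together (r = 0.01 over 5738 regions), so the numbers pair nothing.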

Additional observations from a re-analysis of the deposited data

How the results depend on the processing

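Of 86 counts and ratios under other settings, 34 moved, mostly counts that changed by more than 1.5 times. Of 258 values for single regions, 48 lost and 6 gained a limma adjusted p below 0.05. Only regions called in the main test could lose it and only uncalled ones could gain it, so 258 is the base of neither number. A log2 minimum of 3 gave 156 reproducible regions in C130Y against 82 in (+), 58 shared, 71 C130Y regions absent from (+) and 13 the other way. A −log10 p of at least 5 gave 19 (+) regions absent from C130Y. With absence meaning no listed log2 above 0, the absent sets were 35 for C130Y and 4 for (+). Reads scaled to equal totals, a setting chosen after seeing the data, gave 100 C130Y regions absent from (+) and a length difference of 0 nt.

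limma called 34 regions higher and 2 lower with at least 2 input reads in each library, 28 higher with an overlap of at least 50% of the shorter peak and 8 higher after centring. With regions of 1 peak per library it called 2 higher and 0 lower (28 lower at an unadjusted p below 0.05). Without the variance trend it called 10 higher and 0 lower (58 unadjusted). In regions with a mean log2 above 0 it also called 10 higher and 0 lower (49 unadjusted). The 1 lower region of the main test was not tested in the settings of 1 peak per library and of a mean log2 above 0. With replicate number as a block, limma called 101 regions higher and 6 lower, among them all 15 of the calls without it. The numbers are only a name here, as the correlation of replicate deviations was 0.01.

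Leaving out each library in turn gave 0 to 32 regions higher and 0 to 1 lower by limma (without (+) replicate 2, where 0 passed, 615 were higher and 100 lower at an unadjusted p below 0.05), 478 to 900 reproducible regions in C130Y, 270 to 453 in (+), 222 to 286 shared, 202 to 497 C130Y regions absent from (+) and 47 to 122 the other way. A genotype left with 1 library counts every region of that library, which enlarges its sets, and in limma the lone library is assumed to vary like the other genotype. The log2 ratio of enriched peaks stayed between 0.57 and 0.87. Depth limits low values, as a peak of 3 CLIP reads over 1 input read has a log2 of 1.00 to 2.90.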
